A study of Rattus norvegicus with 8 samples.

Results

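The chemokines Cxcl9, Cxcl10, Cxcl11 and Ccl5, all known to be induced by interferons, were followed in rat aortic smooth muscle cells that received a control siRNA or an siRNA against Giver and then angiotensin II (Ang II). Every probe set annotated to these 4 genes alone was taken, chosen by the annotation and not by its values, which gave 5 of 31042 non-control probe sets (4 of 14217 named genes), with 2 probe sets for Cxcl9. All 5 passed the filter on dim probe sets, a mean over the 8 arrays of at least 4.81 on the log2 scale, as 21729 probe sets did.

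Chemokines are small secreted proteins that guide leukocytes. Cxcl9, Cxcl10 and Cxcl11 bind the receptor Cxcr3, found on activated T cells and natural killer cells, and Ccl5 (also known as RANTES) binds CC chemokine receptors and draws T cells and monocytes. Interferons act through Janus kinases on Stat and Irf factors, which switch these genes on together with NF-kB, and Cxcl9 depends most on interferon-gamma. In the vessel wall, smooth muscle cells can themselves make these chemokines when inflammatory signals reach them.

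Male Sprague-Dawley rats were the source of the smooth muscle cells, which were taken from the thoracic aorta and grown in 10% serum for 2 passages. They were given either non-targeting control siRNA (siNTC) or siRNA against Giver (siGiver), a long non-coding RNA, for 48 h. Ang II (100 nM) or, as its control, phosphate-buffered saline (PBS) was then given to cells of each arm for 3 h. The 4 groups were therefore siNTC with PBS, siNTC with Ang II, siGiver with PBS and siGiver with Ang II, with 2 arrays each. All 4 groups had been transfected with an siRNA, and cells without any siRNA were not analysed here. The level of Giver was not analysed here either, so the knockdown itself is taken from the labels. Whether the 2 arrays of 1 group stem from separate cultures is not in the labels, and the spread behind every p-value may therefore be technical.

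The 2 arrays of each group correlated at 0.997 or above, and array medians lay between 6.15 and 6.19 log2. The summed level of 6 smooth muscle markers lay between 15.01 and 15.21 log2 on every array, a sum led by the bright Tagln and Cald1. With Ang II, Myh11 stood at 10.78 in siNTC and 11.61 in siGiver cells, and Cnn1 at 10.81 and 11.57. In the same order Smtn stood at 8.50 and 9.17, Acta2 at 11.51 and 11.88, Cald1 at 13.16 and 13.33 and Tagln at 14.07 and 14.05. None of the 4 endothelial markers with a probe set passed the filter value. Of 8 macrophage markers 4 passed it, with a summed level between 9.16 and 9.20 log2 in the siNTC Ang II arrays against 8.82 to 8.87 in the siGiver Ang II arrays, 8.98 to 9.06 in siNTC PBS and 9.004 to 9.04 in siGiver PBS. Among the 4, Cd14 stood at 8.38 in siNTC PBS, 8.61 in siNTC Ang II, 8.33 in siGiver PBS and 8.15 in siGiver Ang II, and Cd68 at 4.96, 5.31, 5.08 and 4.71 in the same order, while Lyz2 and Aif1 lay between 5.30 and 5.75. The leukocyte gene Ptprc and the macrophage gene Adgre1 stood at 3.39 and 2.64 in siNTC cells with Ang II, under the filter value. Of 6 T and natural killer cell markers, Gzmb alone passed, and the summed level lay between 6.80 and 7.04. All 4 fibroblast markers passed, with summed levels from 12.3 in siNTC cells with Ang II to 12.7 in siGiver cells with PBS. The part of any such cells in the chemokine values was not tested.

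Cxcl11, Cxcl10 and Cxcl9 lie next to each other on rat chromosome 14, in that order, between Art3 and Sdad1, and Ccl5 lies on chromosome 10. The 250 bases before the annotated start of the 3 neighbours are printed because these genes had the same stimulus and unlike starting levels. The sequences are RefSeq's, of build GRCr8 and on the plus strand, at chr14:16006916-16007165 for Cxcl9, chr14:15988816-15989065 for Cxcl10 and chr14:15973478-15973727 for Cxcl11. Capitals mark matches, on either strand, to GAAANNGAA (the interferon-stimulated response element), TTCNNNGAA (the gamma-activated site), GGNNTTTCC (an NF-kB type motif) and TGANTCA (the AP-1 motif).
Cxcl9: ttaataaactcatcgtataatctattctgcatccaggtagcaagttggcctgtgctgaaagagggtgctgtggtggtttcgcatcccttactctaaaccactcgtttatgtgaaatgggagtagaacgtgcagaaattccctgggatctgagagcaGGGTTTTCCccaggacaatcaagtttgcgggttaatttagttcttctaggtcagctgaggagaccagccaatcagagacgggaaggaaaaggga
Cxcl10: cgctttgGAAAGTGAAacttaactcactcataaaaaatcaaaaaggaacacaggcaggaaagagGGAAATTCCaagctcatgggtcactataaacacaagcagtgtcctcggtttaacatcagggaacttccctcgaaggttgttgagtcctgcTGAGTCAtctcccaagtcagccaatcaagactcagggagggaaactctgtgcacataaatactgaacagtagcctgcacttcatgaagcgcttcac
Cxcl11: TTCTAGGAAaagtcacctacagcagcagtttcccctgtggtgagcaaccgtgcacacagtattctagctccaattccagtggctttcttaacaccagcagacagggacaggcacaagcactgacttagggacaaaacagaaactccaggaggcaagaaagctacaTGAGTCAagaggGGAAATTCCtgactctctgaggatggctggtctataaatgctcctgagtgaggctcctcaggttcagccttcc

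All 3 windows held 1 match to the NF-kB type motif, starting 94 bases before the start in Cxcl9, 186 in Cxcl10 and 73 in Cxcl11, against 5.19% of 33469 rat promoter windows of the same length. Cxcl10 and Cxcl11 had the same letters there, GGAAATTCC, while Cxcl9 had GGGTTTTCC. The AP-1 motif, present in 6.34% of all windows, stood once in Cxcl10 (96 bases before the start) and once in Cxcl11 (85 bases), and had no match in Cxcl9. The interferon-stimulated response element, in 8.12% of windows, matched once in Cxcl10 at 243 bases, and the gamma-activated site, in 7.67%, matched once in Cxcl11 at 250 bases. No matches overlapped each other. A match describes these letters only.

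Before Ang II, the chemokines did not start alike in the siRNA arms. Cxcl10 and Ccl5 were higher in siGiver than in siNTC cells, Cxcl9 was lower, and Cxcl11 did not pass the test. A called difference has a Benjamini-Hochberg adjusted p under 0.05 over all probe sets tested, and each error is a standard error (SE) from the limma fit with 2 arrays per group. In PBS, 2 of the 5 chemokine probe sets were called higher in siGiver cells and 2 lower, against 12.3% of all probe sets higher and 15.5% lower.

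Cxcl10 stood at 11.16 and 11.20 log2 in the siNTC PBS arrays and at 11.76 and 11.71 in the siGiver PBS arrays. The arms did not overlap, and the starting level was 0.55 ± 0.049 higher in siGiver cells (1.47-fold, adjusted p = 0.000344). Ccl5 stood at 9.70 and 9.77 in siNTC PBS and at 10.12 on both siGiver PBS arrays. That is 0.39 ± 0.057 higher in siGiver cells (1.31-fold, adjusted p = 0.00244), and no siNTC array reached the siGiver level.

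The brighter Cxcl9 probe set, 1382454_at, stood at 5.73 and 5.62 in siNTC PBS and at 5.06 and 4.96 in siGiver PBS. Cxcl9 was thus lower in siGiver cells without overlap, by a log2 difference of -0.66 ± 0.075 (adjusted p = 0.000871). The dimmer probe set, 1373544_at, stood at 5.34 and 5.25 in siNTC PBS and at 4.50 and 4.69 in siGiver PBS. Both siGiver arrays of the dimmer probe set lay under the filter value of 4.81, so the arm difference is given as at least 1.40-fold (adjusted p = 0.00562). Levels this low have only a bound here, since no detection calls were used, and both probe sets were lower in siGiver cells.

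Cxcl11 stood at 7.74 and 7.92 in siNTC PBS and at 7.62 and 7.67 in siGiver PBS. The siGiver arrays were the lower ones without overlap, but the difference of -0.18 ± 0.074 did not pass (adjusted p = 0.112, 95% interval from -0.36 to -0.0089).

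**Figure D1:**
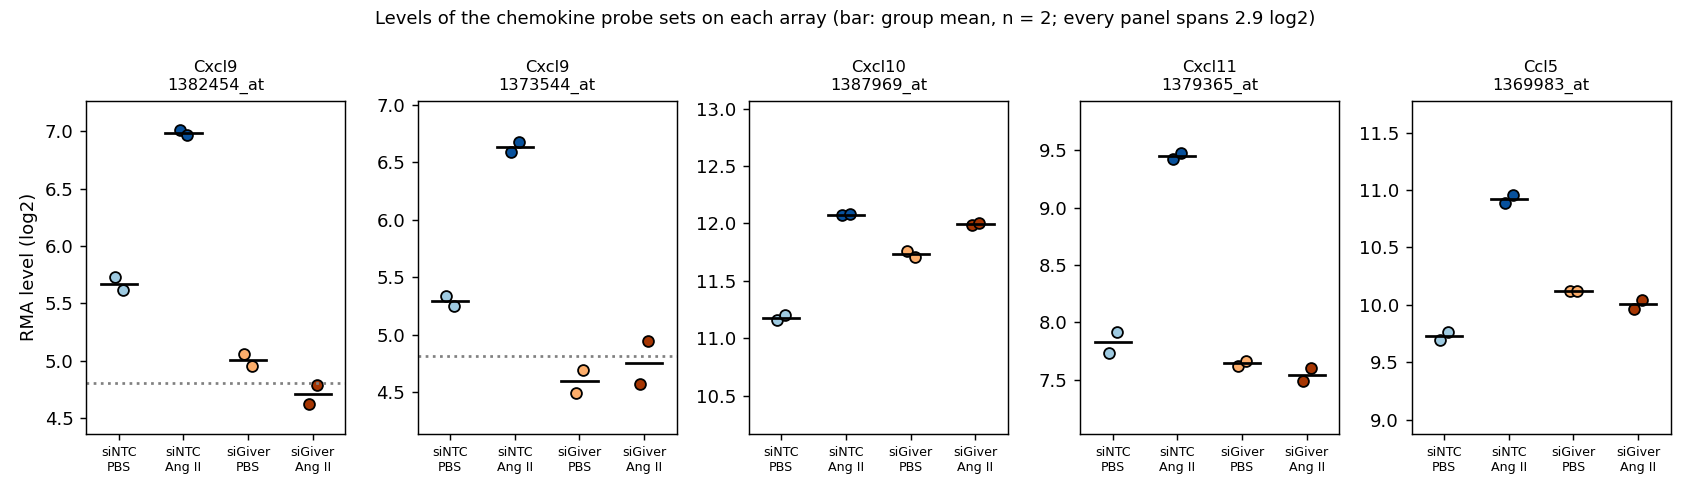
Each panel plots 1 chemokine probe set, with the RMA level (log2) of each array as a point on the y axis, the 4 groups on the x axis and the group mean as a bar (n = 2). The dotted line in the Cxcl9 panels is the filter value of 4.81, and every chemokine stands highest in siNTC cells with Ang II, narrowly for Cxcl10, whose siGiver Ang II arrays lie at 11.99 and 12.003 against 12.07 and 12.08.

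All 4 chemokines rose with 3 h of Ang II in siNTC cells. All 5 probe sets were called higher, against 2.32% of all probe sets called higher and 1.6% called lower in this comparison. The changes ran from 0.90 for Cxcl10 to 1.62 for Cxcl11 on the log2 scale, while the median over all probe sets was -0.0016.

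Cxcl11 stood at 9.43 and 9.48 in the siNTC Ang II arrays, a rise of 1.62 ± 0.074 (3.08-fold, adjusted p = 0.000236) from the PBS values above. This was the fifth highest of the 21729 changes in siNTC cells. Cxcl9 reached 7.01 and 6.97 on its brighter probe set, a rise of 1.31 ± 0.075 (2.49-fold, adjusted p = 0.00041), and 6.59 and 6.68 on its dimmer one, a rise of 1.34 ± 0.12 (2.53-fold, adjusted p = 0.00253). The probe sets of Cxcl9 thus gave rises within 1 SE of each other. Ccl5 stood at 10.89 and 10.96, a rise of 1.19 ± 0.057 (2.29-fold, adjusted p = 0.000253). Cxcl10, the chemokine with the highest starting probe set signal, stood at 12.07 and 12.08, a rise of 0.90 ± 0.049 (1.86-fold, adjusted p = 0.00041). None of the siNTC Ang II arrays overlapped the siNTC PBS arrays. With 2 arrays per group this adds little, since Cxcl11 in siGiver cells did not overlap either and did not pass (limma adjusted p = 0.43). The share of all probe sets without overlap was not counted.

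In siGiver cells the fitted changes with the same treatment lay between -0.30 and 0.26 log2, with a small rise of Cxcl10 and a small fall of 1 Cxcl9 probe set. Of the 5 probe sets, 1 was called higher and 1 lower, against 7.98% of all probe sets called higher and 4.74% called lower. Cxcl10 stood at 11.99 and 12.003 with Ang II against 11.76 and 11.71 before, a rise of 0.26 ± 0.049 (1.20-fold, adjusted p = 0.0154). The Cxcl10 call was lost when any 1 of the 4 siGiver arrays was left out, with changes between 0.24 and 0.28 and adjusted p from 0.0569 without siGiver Ang II replicate 1 to 0.0779 without siGiver Ang II replicate 2.

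Ccl5 stood at 9.97 and 10.05 with Ang II in siGiver cells, slightly under its PBS arrays. The Ccl5 difference of -0.11 ± 0.057 did not pass (adjusted p = 0.229, 95% interval from -0.25 to 0.019), so the interval leaves out a rise like the 1.19 of siNTC cells. Cxcl11 stood at 7.49 and 7.61, and its difference of -0.096 ± 0.074 did not pass (adjusted p = 0.43, 95% interval from -0.27 to 0.078).

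Cxcl9 was dim in these arrays, at 4.63 and 4.79 on the brighter probe set and at 4.57 and 4.94 on the dimmer one. On the brighter probe set the call was a fall of at least 1.15-fold (-0.30 ± 0.075, adjusted p = 0.0415), since its Ang II level lay under the filter value. Leaving out any array but siGiver Ang II replicate 2 ended that call, with adjusted p between 0.0542 and 0.191, and it did not pass when the 2 probe sets were averaged (-0.069, adjusted p = 0.605). On the dimmer probe set both siGiver group means, 4.59 and 4.76, were under the filter value and their arrays overlapped, so no fold is given for it.

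The Ang II change itself differed between the arms for each chemokine. This interaction is the change in siGiver cells minus the change in siNTC cells, and all 5 probe sets were called negative, against 1.33% of all probe sets called negative and 2.03% called positive. The interaction was -1.72 ± 0.11 for Cxcl11 (adjusted p = 0.00101), the second lowest of all probe sets. It was -1.31 ± 0.080 for Ccl5 (adjusted p = 0.00101) and -0.63 ± 0.069 for Cxcl10 (adjusted p = 0.00572). For the brighter Cxcl9 probe set the fitted value was -1.61 ± 0.11 (adjusted p = 0.00101), and with the siGiver Ang II level, which lay under the filter value, set at that value it was -1.51. For the dimmer Cxcl9 probe set the fitted value was -1.18 ± 0.18 (adjusted p = 0.0168), and it has no bound, since both siGiver levels lay under the filter value. That last call was lost when any 1 siNTC array or siGiver PBS replicate 2 was left out, with adjusted p between 0.0594 and 0.0772.

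**Figure D2:**
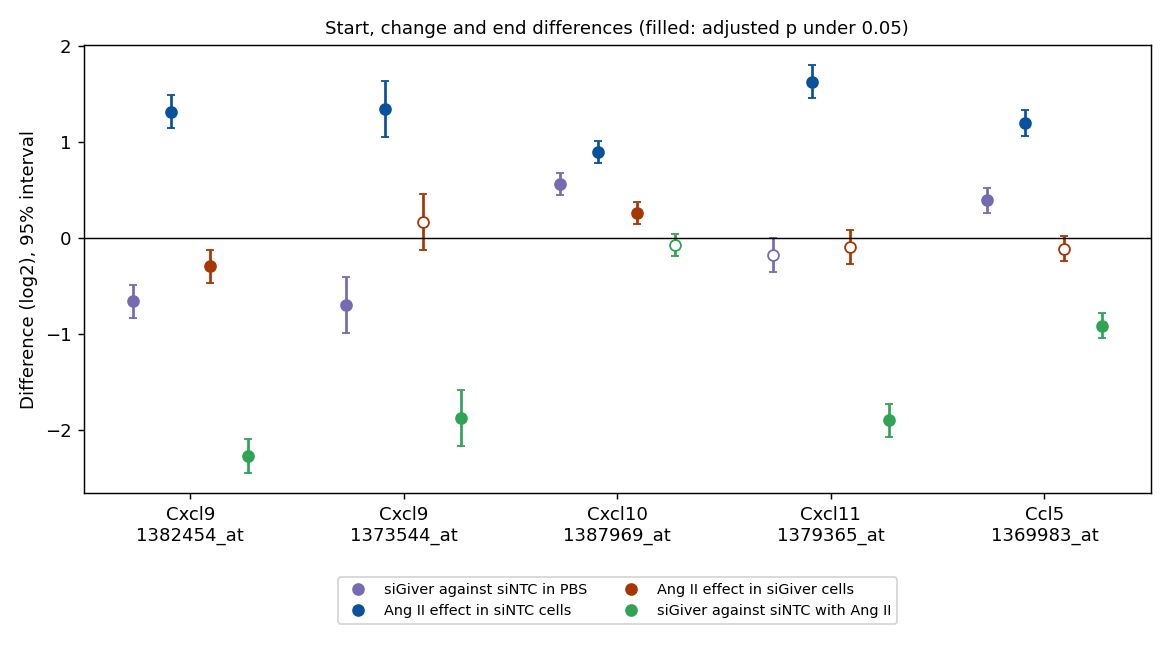
For each chemokine probe set on the x axis, points give the difference in log2 (y axis) with its 95% interval for 4 comparisons, the siRNA arms in PBS, Ang II in each arm and the siRNA arms with Ang II, and filled points have adjusted p under 0.05. The Ang II changes in siNTC cells lie between 0.90 and 1.62, those in siGiver cells between -0.30 and 0.26, and the arm difference with Ang II is -1.90 for Cxcl11 and -0.08 for Cxcl10. Cxcl9 points are plotted as fitted, also where a siGiver level lies under the filter value.

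Starting level and Ang II change are set side by side here without a test, because both use the PBS arrays of the same arm and a high PBS value lowers the change. For Cxcl10, the siGiver PBS level stood 61.9% of the way from the siNTC PBS to the siNTC Ang II level on the log2 scale (54.5% on the linear scale), and Ang II brought it to 91.0%. For Ccl5 the siGiver PBS level stood 32.6% of the way (24.0% linear), and the level with Ang II stood at 23.1%. Both chemokines therefore began higher in siGiver cells, and both had a smaller change there. Cxcl11 began -0.18 from the siNTC level and the brighter Cxcl9 probe set -0.66 from it, and neither rose. Whether the smaller change in siGiver cells had to do with the starting level was not tested. The Cxcl9 level with Ang II in siGiver cells also lay under the filter value.

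With Ang II present in both arms, Cxcl9, Cxcl11 and Ccl5 were lower in siGiver cells, while Cxcl10 did not pass. Of the 5 probe sets, 4 were called lower, against 18.6% of all probe sets called lower and 17.1% called higher. Cxcl11 was 3.74-fold lower in siGiver cells (-1.90 ± 0.074, adjusted p = 1.39e-05) and Ccl5 1.89-fold lower (-0.92 ± 0.057, adjusted p = 5.47e-05). Cxcl9 was at least 4.52-fold lower on its brighter probe set (adjusted p = 7.23e-06) and at least 3.54-fold lower on its dimmer one (adjusted p = 7.32e-05), its siGiver means being under the filter value. Cxcl10 differed by -0.08 ± 0.049 (adjusted p = 0.248, 95% interval from -0.19 to 0.034), with the siGiver arrays just under the siNTC ones.

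The order of the 4 groups was therefore not the same for all genes. For Cxcl10 it rose from siNTC PBS (11.18) through siGiver PBS (11.73) and siGiver Ang II (11.996) to siNTC Ang II (12.08), and of these neighbours only the last pair, the Ang II groups, did not pass. For Ccl5 it rose from siNTC PBS (9.73) through siGiver Ang II (10.01) and siGiver PBS (10.12) to siNTC Ang II (10.92), and the siGiver groups did not differ beyond the test. Ccl5 in siGiver cells with Ang II still stood 0.28 ± 0.057 above siNTC cells in PBS (adjusted p = 0.00731), and below siNTC cells with Ang II.

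For Cxcl11, siGiver Ang II (7.55), siGiver PBS (7.64) and siNTC PBS (7.83) followed each other without a called step between neighbours, well under siNTC Ang II (9.45). The ends of that lower run differed by -0.28 ± 0.074 (adjusted p = 0.0212), a call lost without siNTC PBS replicate 2 (-0.19, adjusted p = 0.106) or siGiver Ang II replicate 1 (-0.22, adjusted p = 0.109). For Cxcl9 on its brighter probe set the order was as for Cxcl11. It rose from siGiver Ang II (4.71) through siGiver PBS (5.01) and siNTC PBS (5.67) to siNTC Ang II (6.99). The caveat given above applies to its lowest step. On the dimmer probe set the siGiver means stood the other way, at 4.59 with PBS and 4.76 with Ang II. Both lay under the filter value, and their arrays overlapped.

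A control probe set on the array, for 5S ribosomal RNA, moved in step with part of this pattern. It stood at 8.20 ± 0.067 (SD, n = 2) in siNTC PBS, 8.90 ± 0.032 in siNTC Ang II, 7.63 ± 0.010 in siGiver PBS and 7.74 ± 0.037 in siGiver Ang II. Over the 8 arrays, which fall into 4 groups, its Pearson r was 0.975 with the brighter Cxcl9 probe set, 0.945 with Cxcl11, 0.726 with Ccl5 and 0.182 with Cxcl10. Its part in the chemokine values was not tested. The 3 prime minus 5 prime signal, a sign of RNA integrity, lay between -0.16 and -0.055 log2 for GAPDH and between 0.23 and 0.30 for beta-actin over all arrays. The GAPDH 3 prime level itself was 12.50 in siNTC PBS and 12.56 in siNTC Ang II. In siGiver cells it was 13.14 and 13.12 in the same order, while group means of beta-actin 3 prime lay between 14.38 and 14.42. Whether the GAPDH difference bears on the chemokine values was not tested.

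The other genes of the pathway were taken from 7 lists with 84 entries, of which 75 had a probe set and 66 passed the filter by their brightest one. Among receptors and modifiers of these chemokines, 4 of 10 were tested. Cxcr3 itself stood at 4.19 on average, and with Ccr1, Ccr3, Ackr1 and Dpp4 it lay under the filter value. Ackr3, a scavenging receptor that binds Cxcl11, fell with Ang II by -0.29 ± 0.057 in siNTC cells (adjusted p = 0.039) and by -1.21 ± 0.057 in siGiver cells (adjusted p = 2.74e-05). Sdc4, a cell surface proteoglycan, rose by 0.28 and 0.72 in the same order. Of the 4 tested, 1 was thus called higher and 1 lower in each arm. Over all genes, by the brightest probe set, 2.83% were called higher and 1.17% lower in siNTC cells, and 7.51% and 5.12% in siGiver cells. Both siNTC calls, of Ackr3 and of Sdc4, were lost when any 1 siNTC array was left out, with adjusted p up to 0.197 and 0.214. Ackr3 also lost it without either siGiver Ang II array, and Sdc4 without either siGiver PBS array. In PBS, 3 of the 4 were called higher in siGiver cells and none lower, against 13.9% of all genes higher and 16.6% lower. These were Sdc1, Sdc4 and Ackr2, a scavenger of CC chemokines, of which Sdc1 alone kept its call when each array was left out in turn.

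Of the interferons, their receptors and Janus kinases, none of 8 genes tested was called by limma in siNTC cells with Ang II, and 1 had an unadjusted p under 0.05, against 21.0% of all probe sets. With so few genes, no call is near the share called over all probe sets. Ifnb1, which encodes interferon-beta, stood at 4.89 in siNTC PBS and 5.29 with Ang II, a difference of 0.40 ± 0.10 that did not pass (adjusted p = 0.0874). In siGiver cells Ifnb1 went from 4.54, under the filter value, to 4.97 and was called (0.44 ± 0.10 as fitted, adjusted p = 0.0355), a call lost without either siNTC PBS array, siGiver PBS replicate 1 or either siGiver Ang II array. The Ifnb1 interaction was 0.04 ± 0.15 (adjusted p = 0.905). Ifng, the gene of interferon-gamma, stood between 2.62 and 2.77 in all groups, under the filter value.

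Interferon-responsive genes moved with the chemokines in siNTC cells. Over all 11377 genes, taken by the brightest probe set, 2.83% were called higher and 1.17% lower there, with a median of 0.0058. Of 12 interferon effector genes 10 rose and none fell (median 0.80), led by the antiviral GTPase Mx1 at 1.77, Ifit3 at 1.32, Rsad2 at 0.87 and Oasl at 1.04. Of 9 interferon-gamma type genes tested 7 rose (median 0.59), with Gbp2 at 0.76, Psmb9, an immunoproteasome subunit, at 0.64, Gbp4 at 0.93 and Igtp at 0.59. Of 13 factors and brakes 5 rose (median 0.21), namely Irf7 (0.73), Usp18 (0.66), Stat2 (0.48), Irf1 (0.40) and Nfkbia (0.23). The calls of Irf1 and Nfkbia were lost without siNTC PBS replicate 1 or either siNTC Ang II array, and that of Nfkbia whichever array was left out. Of 6 nucleic acid sensors and adaptors 3 rose (median 0.37), namely Zbp1 (1.38), Ifih1 (0.61) and Dhx58 (0.51), whose call held without siNTC PBS replicate 2 alone.

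In siGiver cells, where 7.51% of genes were called higher and 5.12% lower with Ang II (median -0.028), these lists were mostly not called. Among effector genes Oasl rose (0.33) and Ifi44 fell (-0.30) while 10 did not pass (median -0.0065). Ifi44 lost its call whichever array was left out, and Oasl lost it without either siGiver PBS array or siGiver Ang II replicate 2. None of the 9 interferon-gamma type genes passed in limma's test (median -0.044), and 1 had an unadjusted p under 0.05, against 29.2% of all probe sets. Of the factors, the NF-kB subunit genes Nfkb1 (0.43) and Rela (0.30) rose (Rela not without siGiver PBS replicate 2 or either siGiver Ang II array), and of the sensors Ifih1 (0.41). On the interaction, called negative in 1.74% and positive in 2.17% of genes (median -0.022), 10 of 12 effector genes and 7 of 9 interferon-gamma type genes were called negative, with medians of -0.74 and -0.65. Of the 13 factors and brakes 4 were called negative (median 0.005), namely Irf7, Usp18, Stat2 and Irf1, and of the 6 sensors Zbp1 alone (median -0.26). Irf1 lost that call whichever array was left out, and Stat2 without siNTC Ang II replicate 2 or siGiver PBS replicate 1. Among the effector genes, the calls of Ifi44 and Mx2 were lost without most single arrays, and that of Bst2 without some. Of the interferon-gamma type genes, Tap1 lost its call whichever array was left out, so their full count held in none of these fits. Irgm and Psmb8 lost theirs without some single arrays, among them siNTC PBS replicate 1, siNTC Ang II replicate 2 and siGiver PBS replicate 1.

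Other chemokines, many of them known as NF-kB targets, were called in 1 direction with Ang II in both arms, upward. Of 14 tested, 9 rose in siNTC cells (median 0.36), against 2.83% of all genes called higher and 1.17% lower. Among them were Ccl7 (0.50), Ccl20 (0.55), Cxcl2 (0.79) and Cxcl3 (0.48). When 1 siNTC array was left out the count fell, to 1 for PBS replicate 1, 3 for PBS replicate 2, 2 for Ang II replicate 1 and 1 for Ang II replicate 2. In siGiver cells 8 rose (median 0.34), against 7.51% of all genes called higher and 5.12% lower. Among them were Ccl20 (0.93), Cxcl2 (1.27), Cxcl1 (0.65) and Ccl4 (0.71). Of the 8, Cxcl3 lost its call whichever array was left out except siGiver PBS replicate 1. Cxcl16 lost its call without siGiver PBS replicate 1 or siGiver Ang II replicate 2. The neutrophil chemokine Cxcl6 was the single one of the 14 with a called interaction (-0.63 ± 0.097, adjusted p = 0.0181), a call lost when any 1 PBS array or either siNTC Ang II array was left out. In PBS, where 13.9% of genes were called higher and 16.6% lower in siGiver cells (median -0.0047), 8 of the 14 were lower and 3 higher (median -0.32). Named by the smallest p, these were Cxcl6 (0.99), Cxcl16 (-0.83), Cx3cl1 (-0.51) and Cxcl12 (0.38).

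**Figure D3:**
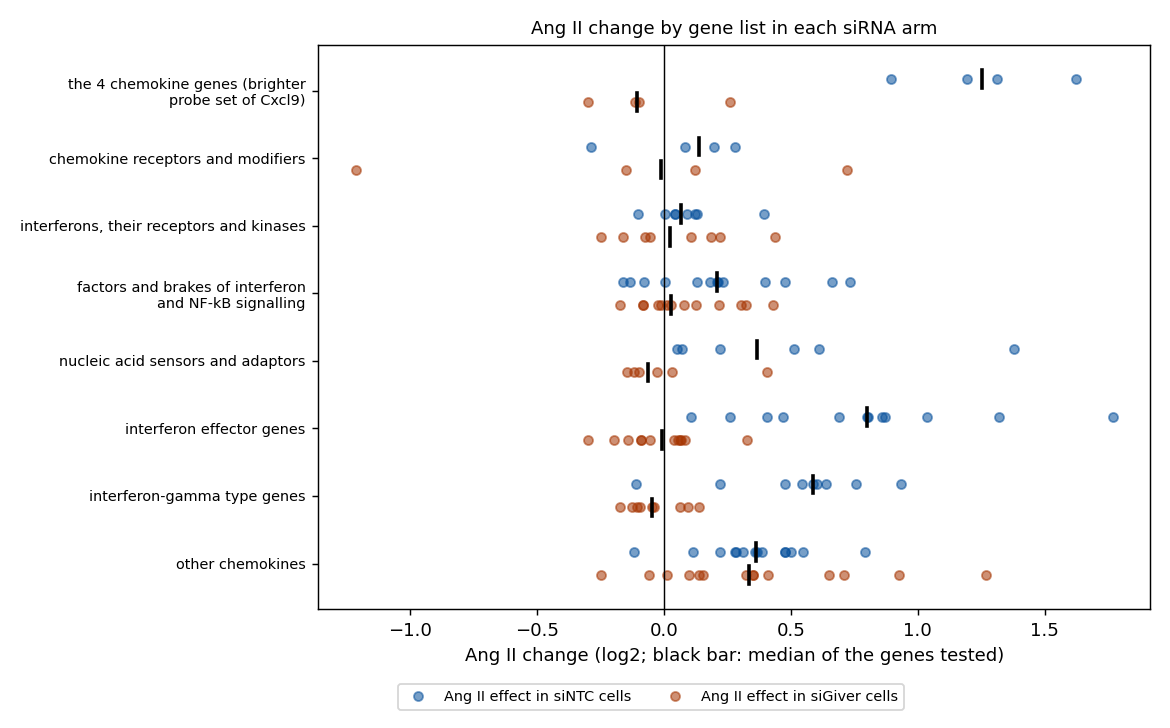
Each point is 1 gene, with its Ang II change (log2) on the x axis in siNTC cells (blue, upper) and siGiver cells (brown, lower), by gene list on the y axis, and black bars are medians over the genes tested. Interferon effector genes have medians of 0.80 and -0.0065 in the 2 arms, and the other chemokines 0.36 and 0.34.

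Starting levels in PBS were also compared for the interferon-responsive genes. None of the 12 effector genes was called between the arms in PBS by limma (median -0.015), and 1 had an unadjusted p under 0.05, namely Ifit1 (adjusted p = 0.12), against 39.2% of all probe sets at an unadjusted p under 0.05 and the called shares of 13.9% and 16.6% given above. Of 9 interferon-gamma type genes, Gbp2 was higher in siGiver cells (0.77 ± 0.050, adjusted p = 0.000136) and Gbp4, Psmb8 and Ciita were lower (-0.84, -0.59 and -0.41), against the same shares. Of 13 factors and brakes, Usp18 (-0.35), Nfkb1 (-0.30) and Irf3 (-0.19) were called lower. Of 6 sensors and adaptors, Zbp1 (-0.33) and Mavs (-0.20) were lower. Of 8 interferons, receptors and kinases, Tyk2 (-0.32) and Ifnb1 (-0.36 as fitted, its siGiver level under the filter value) were lower. These last lists had no gene called higher, and in them Usp18 and Nfkb1 alone kept their calls when each array was left out in turn.

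The genes whose level was most like each chemokine over the 8 arrays were taken by Pearson r among 1871 genes whose group means spanned at least 0.5 log2. With 4 groups of 2 arrays such an r mainly shows the order and spacing of the 4 group means, and it is given as a description. Cxcl11 was closest to Oas1a (r = 0.998), Mx1 (0.996), Irgm (0.994), Isg15 (0.994) and Parp14 (0.992). Mx1 matched it in size too, at 1.77 with Ang II in siNTC cells, and started -0.05 from the siNTC level in siGiver cells.

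Cxcl9 was closest to Lgals3bp (0.996), which encodes a secreted galectin-binding glycoprotein, then Gbp7 (0.994), Sp110 (0.994), Il18bp (0.993), the gene of a soluble interleukin inhibitor, and Parp9 (0.990). Their differences between siGiver and siNTC cells in PBS ran from -0.15 to -0.48, which the choice by likeness to Cxcl9 favours. Ccl5 was closest to Igtp (0.986), Ifit1 (0.978), the class I histocompatibility gene RT1-S3 (0.977), Ifi27l2b (0.969) and Bst2 (0.966). Their fitted differences between siGiver and siNTC cells in PBS ran from 0.071 to 0.50, and those of Igtp, Ifit1 and Bst2 did not pass (adjusted p = 0.0871, 0.12 and 0.50).

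Cxcl10 had looser company, with Gch1 (0.968), the gene of GTP cyclohydrolase, then Spetex2l1 (0.936), Ripk3 (0.914), Slfn2 (0.911) and Gbp2 (0.906). Gch1 went from 5.86 to 6.67 with Ang II in siNTC cells and from 6.26 to 6.41 in siGiver cells. Gbp2 began at 10.22 in siNTC and 10.99 in siGiver PBS, and stood at 10.97 and 10.88 with Ang II. Among the chemokines, r was 0.956 between Cxcl11 and the brighter Cxcl9 probe set, 0.907 between Cxcl11 and Ccl5, and 0.163 between Cxcl9 and Cxcl10. The Cxcl9 probe sets correlated at 0.972 with each other.

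**Figure D4:**
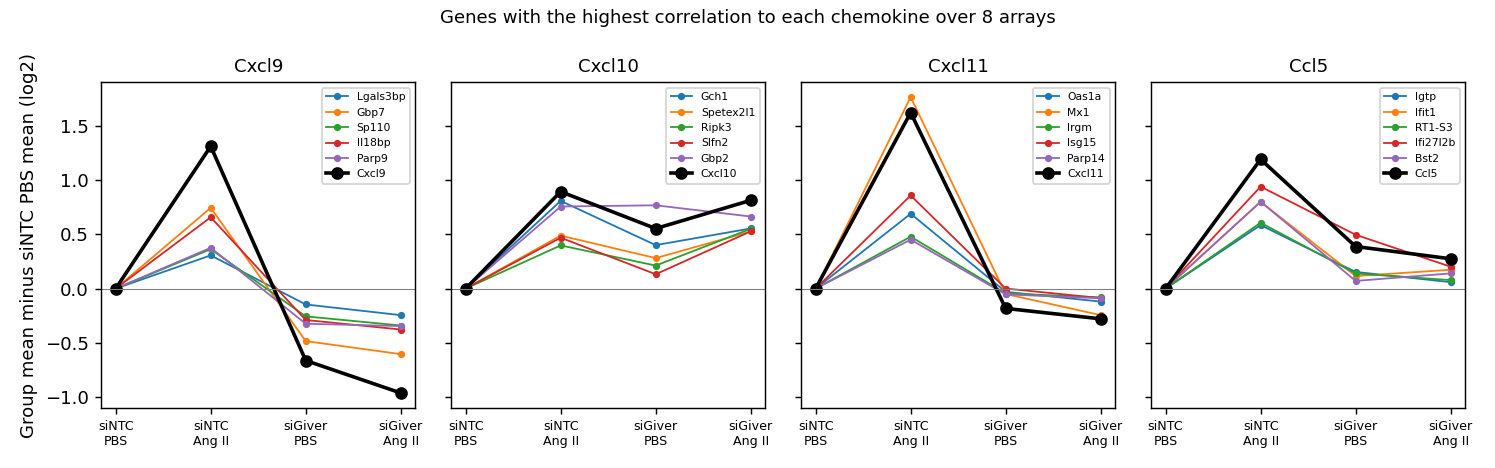
Each panel shows 1 chemokine (black) and the 5 genes most like it (coloured), as group means minus the siNTC PBS mean in log2 (y axis) over the 4 groups (x axis, lines join groups of 1 gene and mark no order in time). In siGiver PBS, Cxcl10 and Ccl5 lie 0.55 and 0.39 above the siNTC PBS level, Cxcl11 -0.18 and Cxcl9 -0.66 from it.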

How the data were processed

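The authors deposited 1 log2 value per probe set and array, and the submitters' processing notes name RMA (background correction, quantile normalization, 1 summary per probe set) and Partek, with versions not given in the sources used here. Values are comparable between arrays for 1 probe set, not between probe sets, and arrays have no read depth, so their number limits precision. Samples were grouped by the labels' titles. Probe sets were named by GEO's platform annotation, with symbols updated by gene identifier for 20758 of 20826 probe sets with 1 symbol. Non-control probe sets with a mean at or above the 30th percentile (4.81 log2) were kept. The 4 group means were estimated in 1 limma fit (limma 3.58.1, R 4.3.3, with 4 residual and 3.40 prior degrees of freedom) of the 8 arrays, across all 21729 probe sets, with Benjamini-Hochberg adjusted p under 0.05 called, and was tested on simulated data. All pairwise comparisons of the groups and the interaction were tested. Pathway lists use each gene's brightest probe set, and up to 4 members of smallest p are named, with counts of 5 or fewer given in full. Likeness took the 5 genes of highest r. The members, lists, motifs and alternatives were chosen with earlier results of these data known. Promoter letters came from RefSeq's table (build GRCr8), which matched 3 of the 4 genes. Some list entries were not analysed here.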

Additional observations from a re-analysis of the deposited data

Results flagged for a closer look

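The Ang II change differed between the siRNA arms, by limma's test of the interaction itself, for all 5 chemokine probe sets. On the log2 scale, with the siNTC change subtracted from the siGiver change, the fitted difference was -1.61 for Cxcl9 on the brighter probe set (1382454_at), -1.18 for Cxcl9 on the dimmer one (1373544_at), -0.63 for Cxcl10, -1.72 for Cxcl11 and -1.31 for Ccl5, with adjusted p from 0.00101 to 0.0168. Cxcl9 levels in siGiver cells with Ang II lay under the filter value of 4.81, on the dimmer probe set those with PBS too. With that level set at 4.81 the value of the brighter probe set was -1.51, and the dimmer one has no bound. The arrays of both arms that received PBS enter these values, and the groups hold 2 arrays each, too few for a check of single arrays that stand apart.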

How the results depend on the processing

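The alternatives were chosen with earlier results of these data known, and those on counts of list genes were chosen after seeing the data. Of 562 values of the chemokine probe sets under alternatives, 534 kept their direction and their side of the threshold, 26 lost a call, 1 gained one and 1, never called, changed sign (Cxcl9, 1373544_at, Ang II in siGiver cells, under the filter value). Many alternatives, such as another filter, another moderation or the replicate block, left the fitted difference identical, so its direction could not change there. The same holds where the array left out was not part of the comparison. Where not said otherwise, the cause of a change was not tested.

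With no filter on dim probe sets, calls numbered 423 for Ang II in siNTC cells (852 as reported), 1732 in siGiver cells (2764) and 339 for the interaction (730). A filter at the 50th percentile gave 1529 for siNTC cells and 1269 for the interaction, and left no Cxcl9 probe set to test. Trended robust moderation gave 2260, 4352 and 1901, and fitting the compared groups alone gave 444 for siNTC and 1456 for siGiver cells. With 1 probe set per gene fewer features were tested: taking a gene's brightest probe set or averaging its probe sets gave 3986 and 3809 calls between the siRNA arms in PBS (6042), 5037 and 4940 with Ang II (7751), 5142 and 5051 for siGiver Ang II against siNTC PBS (8410), and 4655 and 4520 for siNTC Ang II against siGiver PBS (6983).

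The fall of Cxcl9 with Ang II in siGiver cells on 1382454_at stayed at -0.30 but lost its call with no filter (adjusted p = 0.0809), trended robust moderation (0.0621), the replicate block (0.065) and the compared groups alone (0.0973), and was -0.069 with probe sets averaged. Fitting the compared groups alone also ended the call of Cxcl10 in siGiver cells (0.26, adjusted p = 0.0564) and of Cxcl11 in siGiver Ang II against siNTC PBS (-0.28, adjusted p = 0.0559). Cxcl11 in PBS became called with trended robust moderation (-0.18, adjusted p = 0.0499).

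Without 1 array at a time, calls ranged from 138 to 727 for Ang II in siNTC cells, 1038 to 2382 in siGiver cells, 3753 to 5849 between arms in PBS, 5423 to 7545 with Ang II and 207 to 520 for the interaction. They ranged from 6252 to 8100 and from 4729 to 6802 in the comparisons of siGiver Ang II with siNTC PBS and of siNTC Ang II with siGiver PBS. Chemokine values ranged from -0.38 to -0.22 (Cxcl9, 1382454_at, siGiver), -0.028 (without siGiver Ang II replicate 2) to 0.35 (Cxcl9, 1373544_at, siGiver), 0.24 to 0.28 (Cxcl10, siGiver), -1.36 to -0.99 (Cxcl9, 1373544_at, interaction), and -0.73 to -0.35 (Cxcl9, 1373544_at) and -0.37 to -0.19 (Cxcl11) for siGiver Ang II against siNTC PBS. Values that were not called ranged from -0.27 to -0.093 for Cxcl11 in PBS, and with Ang II in siGiver cells from -0.16 to -0.037 for Cxcl11 and -0.15 to -0.073 for Ccl5.

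Deviations of same-numbered arrays correlated between groups at -0.14 to 0.098. Whether same-numbered arrays share more than a number is not in the labels and was not tested. The replicate block gave 629 calls for Ang II in siNTC cells, 2392 in siGiver cells and 451 for the interaction.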

Other observations

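Cxcl6, a neutrophil-attracting chemokine outside the interferon-induced group, also started higher in siGiver cells. It stood at 4.85 and 4.95 log2 in siNTC PBS, 5.25 and 5.32 in siNTC Ang II, 5.85 and 5.93 in siGiver PBS and 5.58 and 5.71 in siGiver Ang II. Unlike each of the 4 interferon-induced chemokines, whose highest group mean was siNTC with Ang II, Cxcl6 was highest in siGiver cells with PBS. For Cxcl10 that highest group was not called against siGiver with Ang II. The starting level of Cxcl6 was 0.99 higher in siGiver cells. Its Ang II change was 0.39 ± 0.069 in siNTC cells (limma adjusted p = 0.0262, lost when any 1 siNTC array was left out) and -0.25 ± 0.069 in siGiver cells, which did not pass (adjusted p = 0.0567).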
